A study of Mus musculus with 28 samples.

Results

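Hhex, Ski, Zbtb32, Klf3, Id2 and Id3 are 6 regulators of transcription tied to the fate of memory B cells. They were chosen by name, 6 of the 23382 gene symbols measured by RNA-seq in germinal center B cells of mice. The 28 libraries fall into 6 groups, each of which carries 1 copy of Cg1Cre, which drives Cre recombinase from the C-gamma-1 immunoglobulin locus in B cells after activation, and so also recombines in cells outside the germinal center. The D370Y group (5 libraries) is Tbl1xr1(D370Y/WT) and its control, WT (3 libraries), is Tbl1xr1(WT/WT). ImuBcl6 D370Y (5 libraries) is Tbl1xr1(D370Y/WT) and ImuBcl6 (5 libraries) is Tbl1xr1(WT/WT), both with the ImuBCL6 allele, a knock-in that keeps Bcl6 switched on in B cells through immunoglobulin regulatory sequence. The group labelled KO (5 libraries) is Tbl1xr1(KO/KO) and its control, Cre control (5 libraries), is Tbl1xr1(WT/WT), the same genotype as WT but with a library protocol described separately. The labels do not tie libraries to animals, ages or sexes, so that p-values measure the spread between these libraries, which may be technical in part.

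Activated B cells in the germinal center mutate their antibody genes and leave as plasma cells or as memory B cells. BCL6, the master repressor of the germinal center program, works through NCoR and SMRT corepressor complexes, of which TBL1XR1 is a subunit. HHEX is a homeodomain repressor that binds Groucho/TLE corepressors and is required for memory B cell formation, and SKI is a corepressor of SMAD proteins that has been placed with HHEX on this route. ZBTB32 is a BTB zinc finger repressor that limits the recall response of memory B cells, KLF3 is a zinc finger repressor that recruits CtBP and shapes mature B cell subsets, and ID2 and ID3 lack a DNA-binding domain and hold E proteins such as E2A (Tcf3) off DNA.

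Hhex (ENSMUSG00000024986.12) lies on chromosome 19 at 37434810 to 37440731, plus strand, and Klf3 (ENSMUSG00000029178.14) on chromosome 5 at 64803388 to 64832901, plus strand. Zbtb32 (ENSMUSG00000006310.10) lies on chromosome 7 at 30589681 to 30598909 and Ski (ENSMUSG00000029050.15) on chromosome 4 at 155154075 to 155222592, both on the minus strand. Id2 (ENSMUSG00000020644.9) lies on chromosome 12 at 25093799 to 25097140, minus strand, and Id3 (ENSMUSG00000007872.3) on chromosome 4 at 136143497 to 136145755, plus strand. All positions are mm10, and all 6 are protein coding. The Klf3 gene overlaps the annotated genes Gm20033, on the other strand, and C230096K16Rik, on the same strand, and whether strand was used in the counting is not stated in the labels.

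The promoters of Klf3, Hhex and Zbtb32, the members that rose with D370Y in at least 1 fit, and of Id2 and Id3, which moved apart in the ImuBcl6 group, are shown as the 250 bases before each start in RefSeq (GRCm38.p6), 5′ to 3′ on the strand of the gene. All 6 members matched the RefSeq table. These starts are not the ends of the gene bounds given above for all of them. The Id2 and Id3 windows lie inside those bounds, and the Klf3 and Hhex windows lie partly inside them. Both strands were searched for TTCCNNGAA (BCL6-type), CAGGTG and CAGCTG (E-boxes, which E proteins bind), CCACACCC (a CACCC box, which KLF proteins bind) and GGGCGG (a GC box, which SP and KLF proteins bind), and capitals mark the matches.
Klf3, chr5:64803271-64803520, plus strand: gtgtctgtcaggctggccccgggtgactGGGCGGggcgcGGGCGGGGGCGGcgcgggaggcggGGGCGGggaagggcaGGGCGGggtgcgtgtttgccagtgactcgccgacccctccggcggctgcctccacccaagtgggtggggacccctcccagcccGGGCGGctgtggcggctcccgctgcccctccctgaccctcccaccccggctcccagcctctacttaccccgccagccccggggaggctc
Hhex, chr19:37434591-37434840, plus strand: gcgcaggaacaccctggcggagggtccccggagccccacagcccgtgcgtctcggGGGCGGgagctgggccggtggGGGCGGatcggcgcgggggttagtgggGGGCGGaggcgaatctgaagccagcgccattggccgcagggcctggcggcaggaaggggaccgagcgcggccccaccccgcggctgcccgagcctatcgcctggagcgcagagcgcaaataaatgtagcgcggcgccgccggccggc
Zbtb32, chr7:30598910-30599159, minus strand: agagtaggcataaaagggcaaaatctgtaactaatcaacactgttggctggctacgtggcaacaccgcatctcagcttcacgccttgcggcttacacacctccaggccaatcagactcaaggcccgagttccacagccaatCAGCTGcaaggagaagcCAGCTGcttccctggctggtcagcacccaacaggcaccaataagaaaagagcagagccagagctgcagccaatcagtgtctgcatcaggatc
Id2, chr12:25096093-25096342, minus strand: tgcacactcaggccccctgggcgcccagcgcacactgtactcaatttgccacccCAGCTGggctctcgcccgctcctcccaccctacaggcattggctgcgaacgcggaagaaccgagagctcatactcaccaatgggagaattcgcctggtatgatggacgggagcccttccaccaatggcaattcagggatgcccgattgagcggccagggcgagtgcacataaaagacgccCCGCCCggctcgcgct
Id3, chr4:136143572-136143821, plus strand: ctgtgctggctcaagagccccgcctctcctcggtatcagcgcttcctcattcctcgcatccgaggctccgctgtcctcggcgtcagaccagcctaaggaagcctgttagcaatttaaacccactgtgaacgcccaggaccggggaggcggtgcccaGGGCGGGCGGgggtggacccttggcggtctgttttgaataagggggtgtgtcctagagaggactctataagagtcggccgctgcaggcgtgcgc

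The Klf3 window holds 6 GC boxes and the Hhex window 3, at GC contents of 78.4% and 76%. The Ski window, not printed, holds 5 at a GC content of 87.6%. The Id3 window holds 2 overlapping GC boxes, and the Id2 window holds 1 GC box on the other strand and 1 CAGCTG E-box, each at a GC content of 62.8%. Zbtb32 differs from the rest: its first promoter has no GC box, a GC content of 53.6% and 2 CAGCTG E-boxes, and its other listed promoter holds 1 CACCC box. GGGCGG occurs in 32.7% of the 32851 mouse promoter windows of this length, CAGCTG in 13.0% and CCACACCC in 3.20%. TTCCNNGAA (4.06% of windows) and CAGGTG (17.2%) were not among the letters of these windows. A match describes the letters only and shows no bound factor.

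The deposited values are CPM, read counts scaled to a common library total, with 19022495 to 37700121 reads per library behind them. B cell and germinal center markers were present in every group, at a summed 5115 to 7742 CPM over 9 genes, none of them at 3 reads or fewer throughout a group. Replicate 3 of the group labelled KO stood apart: the listed genes held 64.4% of its library total used for CPM, against at least 78.7% in every other library. Tbl1xr1 was not lower in the group labelled KO, at 102.0 ± 15.4 CPM (SD, n = 5) against 86.0 ± 5.82 CPM (SD, n = 5) in Cre control. A count summed over the gene also takes in exons outside any deleted part, so this does not check the label. Bcl6 was at 549.8 ± 24.5 CPM (SD, n = 5) in ImuBcl6 and 362.6 ± 4.18 CPM (SD, n = 3) in WT, a log2 fold change of 0.60 (SE 0.05, limma adjusted p = 6.02e-06). The 2 groups with the ImuBCL6 allele differed in both transcripts: in ImuBcl6 D370Y Bcl6 was at 467.0 ± 40.1 CPM (SD, n = 5), lower than in ImuBcl6 by 0.24 on the log2 scale (limma adjusted p = 0.0344), and Tbl1xr1 was lower by 0.37 (adjusted p = 0.0261), each without overlap. Xist ran from 486 to 1460 CPM in D370Y and from 2.22 to 9.12 CPM in WT, but from 0.299 to 1.39 CPM in ImuBcl6 D370Y and from 304 to 638 CPM in ImuBcl6. Sex-linked transcripts and D370Y therefore cannot be told apart within either pair, but run opposite ways in the 2 pairs. They are likewise confounded with ImuBcl6 against WT, where all 5 sex-linked genes tested were called (1 higher, 4 lower), and with the difference between the D370Y effects in the 2 backgrounds (4 higher, 1 lower). In the group labelled KO Xist ran from 0.0262 to 948 CPM and in Cre control from 0.108 to 179 CPM. The Y-linked Ddx3y ran from 0 to 14.5 and from 0 to 16.4 CPM, so both of these groups mix libraries with high and low sex-linked transcripts.

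All 6 members were above 1 CPM in all 28 libraries, with 90 reads (Klf3 in WT) to 4934 reads (Id3 in the group labelled KO) behind a value. Per kilobase of exon, the scale on which genes can be compared, Id3 was the most abundant at a mean of 42.3 CPM per kb over the 28 libraries. Zbtb32 followed at 6.36, Id2 at 5.81, Hhex at 2.68, Ski at 0.915 and Klf3 at 0.447 CPM per kb. Zbtb32 and Id2 are close on this scale, and Id3 stands apart from the other 5.

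**Figure D1:**
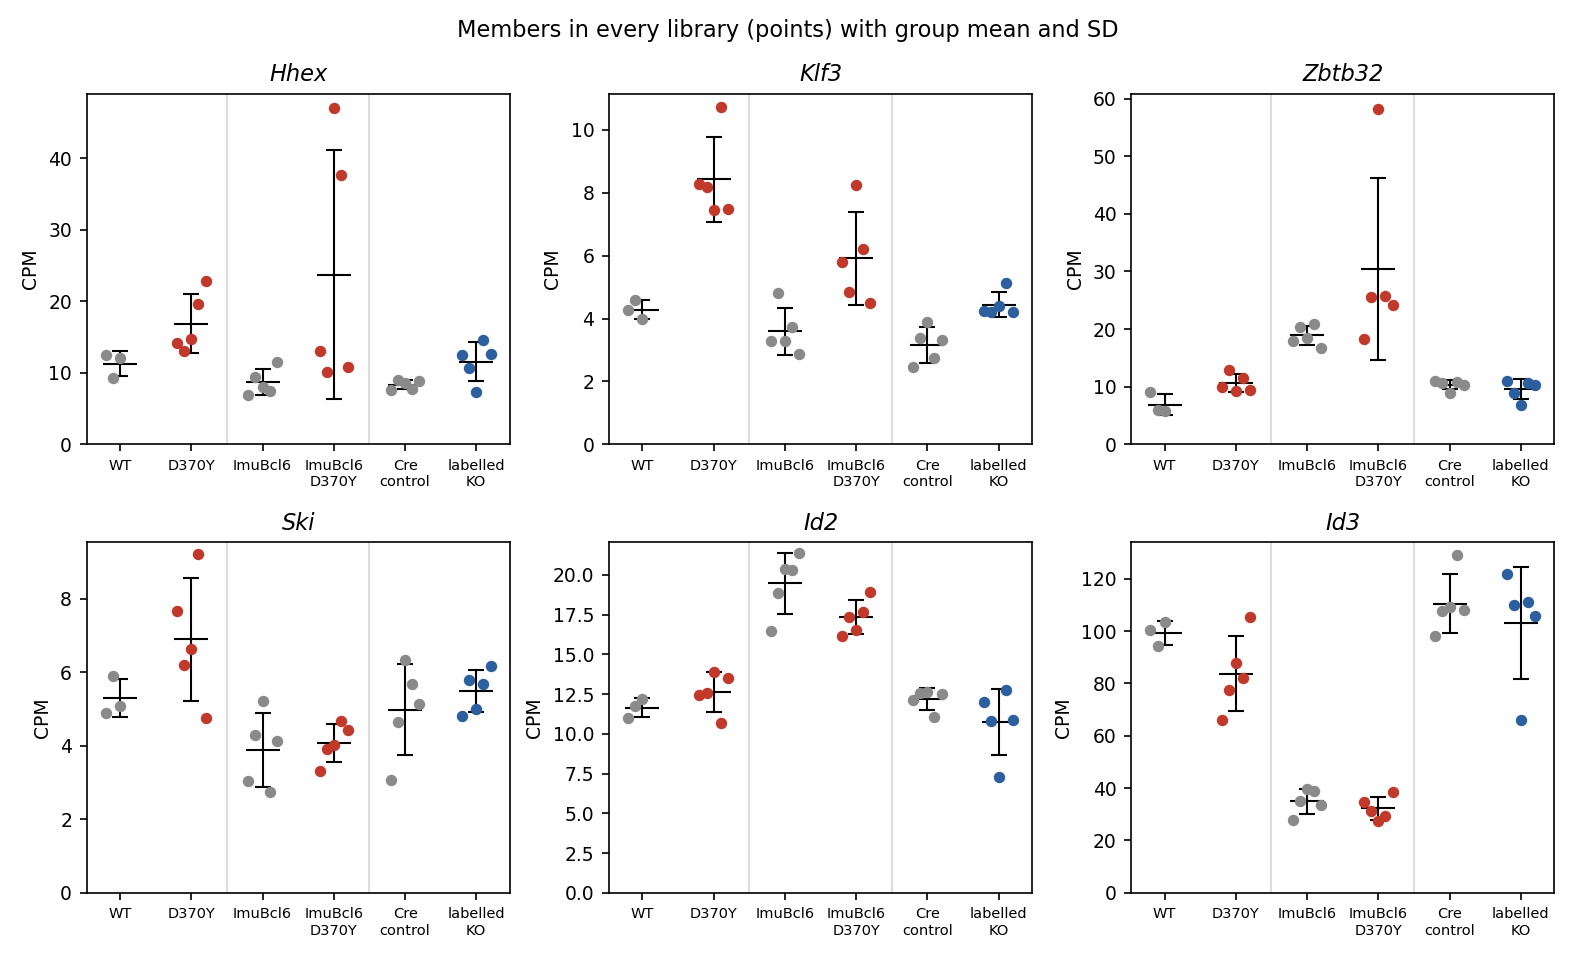
CPM of each member (linear axis from 0) in every library of the 6 groups, each control to the left of its allele; points are libraries, horizontal bars group means and error bars SD. Klf3 lies higher in all 5 D370Y libraries than in any WT library, Hhex reaches 47.0 and 37.7 CPM in replicates 3 and 4 of ImuBcl6 D370Y, and Id3 is lower in both ImuBcl6 groups than in the other 4 groups.

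The first comparison asks which members differ with D370Y in otherwise unmodified germinal center B cells. Klf3 and Zbtb32 rose, by 1.97 and 1.54 times in mean CPM, and no member fell. Hhex was 1.497 times higher in mean CPM without passing the test, and Ski, Id2 and Id3 did not pass it either. Of the 10600 genes tested, 3.55% were called and 2.6% were called higher, against 2 of the 6 members. More (or fewer) cells of a type that holds a transcript and more (or less) of it per cell cannot be told apart in such bulk libraries.

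Klf3 was at 8.29, 8.18, 7.44, 10.7 and 7.47 CPM in the 5 D370Y libraries and at 4.26, 4.60 and 3.99 CPM in the 3 WT libraries. Every D370Y library lay above every WT library, and the group means were 8.43 ± 1.35 CPM (SD, n = 5) and 4.28 ± 0.309 CPM (SD, n = 3). The log2 fold change, here and below on the log2(CPM + 1) scale, which understates changes of low genes, was 0.83 (SE 0.12, limma adjusted p = 0.00225). Klf3 ranked 52nd of the 10600 genes by p, ahead of the other members.

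Zbtb32 was at 10.02, 13.0, 9.29, 11.5 and 9.36 CPM in D370Y and at 8.99, 5.94 and 5.76 CPM in WT. The groups did not overlap, but WT replicate 1 came close to the lowest D370Y library. Its log2 fold change was 0.57 (SE 0.14, limma adjusted p = 0.0466), just inside the threshold of 0.05. The call was lost on leaving out any 1 library other than WT replicate 1, with adjusted p up to 0.267, and in edgeR's quasi-likelihood test on the recovered reads (adjusted p = 0.0600).

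Hhex was at 14.2, 13.0, 14.7, 19.6 and 22.8 CPM in D370Y and at 12.5, 9.30 and 12.1 CPM in WT. Here too all 5 D370Y libraries lay above all 3 WT libraries, and replicates 4 and 5 were the highest. Hhex had a log2 fold change of 0.52 (SE 0.16) and a limma adjusted p of 0.111. In DESeq2, 1 of the 10 other settings tried, it passed (0.59, adjusted p = 0.0328).

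Klf3, Zbtb32 and Hhex were the 3 members whose D370Y libraries all lay above WT, which held for 7.5% of all genes tested. Ski was at 7.66, 6.21, 6.64, 9.23 and 4.77 CPM in D370Y and at 4.91, 5.90 and 5.10 CPM in WT. Its groups overlapped through D370Y replicate 5, the lowest library of both groups, and the log2 fold change was 0.30 (SE 0.16, limma adjusted p = 0.327). Id2 was at 10.7 to 13.9 CPM in D370Y and 11.0 to 12.2 CPM in WT, with a 95% interval of the log2 fold change from -0.10 to 0.31. Id3 was at 66.2, 77.3, 87.9, 82.0 and 105.2 CPM in D370Y and at 100.5, 94.2 and 103.3 CPM in WT. Of the D370Y libraries 4 lay below all WT libraries and the fifth above them (log2 fold change -0.26, SE 0.12, limma adjusted p = 0.256).

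With the ImuBcl6 allele in both groups, the same question gave 1 called member. Klf3 rose by 1.64 times in mean CPM. Of the 10784 genes tested, 8.18% were called and 2.8% were called higher. Hhex and Zbtb32 had mean CPM 2.74 and 1.61 times those of ImuBcl6, but their rise rested on part of the libraries and did not pass the test. Ski, Id2 and Id3 were within 0.16 of 0 on the log2 scale, and also did not pass.

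Klf3 was at 5.79, 4.85, 8.26, 6.21 and 4.49 CPM in ImuBcl6 D370Y and at 3.28, 4.82, 3.29, 3.73 and 2.88 CPM in ImuBcl6. Replicate 3 was the highest, and the groups overlapped only in that replicate 5 of ImuBcl6 D370Y lay below replicate 2 of ImuBcl6. This gave a log2 fold change of 0.58 (SE 0.15, limma adjusted p = 0.0314). The call was lost on leaving out 1 of 6 libraries (replicates 1, 3 and 4 of ImuBcl6 D370Y and replicates 3, 4 and 5 of ImuBcl6), with adjusted p up to 0.0877 and log2 fold changes from 0.47.

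Hhex was at 13.0, 10.1, 47.0, 37.7 and 10.8 CPM in ImuBcl6 D370Y and at 6.84, 9.40, 8.07, 7.52 and 11.5 CPM in ImuBcl6. Replicates 3 and 4 were the 2 highest values of Hhex in the series, and the other 3 libraries lay between 10.1 and 13.0 CPM, against 11.5 CPM in the highest control. The mean of 23.7 ± 17.4 CPM (SD, n = 5) lies between the 2 sets of libraries. The log2 fold change of 1.09 (SE 0.37) had a limma adjusted p of 0.0941. It passed in edgeR's quasi-likelihood test (1.47, adjusted p = 0.0489) and in DESeq2 (1.47, adjusted p = 0.0283), which model the recovered reads, and when all 28 libraries shared 1 estimate of the spread (1.09, limma adjusted p = 0.0285).

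Zbtb32 was at 18.3, 25.6, 58.2, 25.8 and 24.2 CPM in ImuBcl6 D370Y and at 17.9, 20.3, 18.5, 20.9 and 16.8 CPM in ImuBcl6. Replicate 3, the library with the highest Hhex and Klf3, again stood far above the rest, 3 others lay above every control, and replicate 1 lay among the controls. For Zbtb32 the log2 fold change was 0.55 (SE 0.23, limma adjusted p = 0.159), and 0.29 (adjusted p = 0.274) without replicate 3.

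Ski was at 3.32 to 4.67 CPM in ImuBcl6 D370Y, inside the 2.75 to 5.22 CPM of ImuBcl6, with a log2 fold change of 0.07 (SE 0.14, limma adjusted p = 0.818). Id2 was at 16.2, 17.3, 16.5, 17.7 and 18.9 CPM against 16.4, 18.9, 20.3, 20.3 and 21.3 CPM (log2 fold change -0.16, SE 0.08, limma adjusted p = 0.258). The 2 groups overlapped, with 3 ImuBcl6 libraries above every ImuBcl6 D370Y library. Id3 was at 34.6, 31.2, 27.6, 29.4 and 38.5 CPM against 27.9, 35.2, 39.8, 38.7 and 33.5 CPM, and the groups overlapped almost fully (log2 fold change -0.11, SE 0.11, limma adjusted p = 0.572).

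Averaged over both backgrounds, an estimate added after the data were seen because sex-linked transcripts run opposite ways in the 2 pairs, Klf3, Zbtb32 and Hhex were called higher. The average did not remove the sex-linked difference, with 3 of the 5 sex-linked genes still called lower (median log2 fold change over the 5, -0.48). All 9 myeloid markers tested and 3 of 5 naive B cell markers were called higher as well. In this fit 6.23% of the 11166 genes tested were called higher. The log2 fold changes were 0.70 for Klf3 (SE 0.10, limma adjusted p = 0.000179), 0.81 for Hhex (SE 0.24, limma adjusted p = 0.0342) and 0.56 for Zbtb32 (SE 0.15, limma adjusted p = 0.0206). Klf3 kept the call on leaving out any 1 of the 18 libraries (adjusted p up to 0.00113). Zbtb32 lost it without WT replicate 2 or 3 (up to 0.0721). Hhex lost it without any of 8 libraries (D370Y replicates 4 and 5, WT replicates 1, 2 and 3, ImuBcl6 D370Y replicate 4, ImuBcl6 replicates 3 and 4; up to 0.0966). Ski was at 0.19 (adjusted p = 0.300), Id2 at -0.03 (0.831) and Id3 at -0.19 (0.167) in the same fit.

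The difference between the D370Y effects with and without ImuBcl6 was tested in 1 limma fit of the 4 groups, in which 0.663% of genes were called. No member was called, there or by edgeR or DESeq2, and 1 had an unadjusted p below 0.05: Id2, at -0.26 (95% interval -0.51 to -0.01, adjusted p = 0.398), which was higher than control on the log2 scale without ImuBcl6 (0.10) and lower with it (-0.16). For Klf3 the difference was -0.25 (95% interval -0.68 to 0.18) and for Hhex 0.57 (95% interval -0.45 to 1.58). The Hhex interval is wide enough to hold differences as large as its D370Y effects (0.52 without ImuBcl6 and 1.09 with it). That of Klf3 holds a difference as large as its effect with ImuBcl6 (0.58), but not as large as that without it (0.83).

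**Figure D2:**
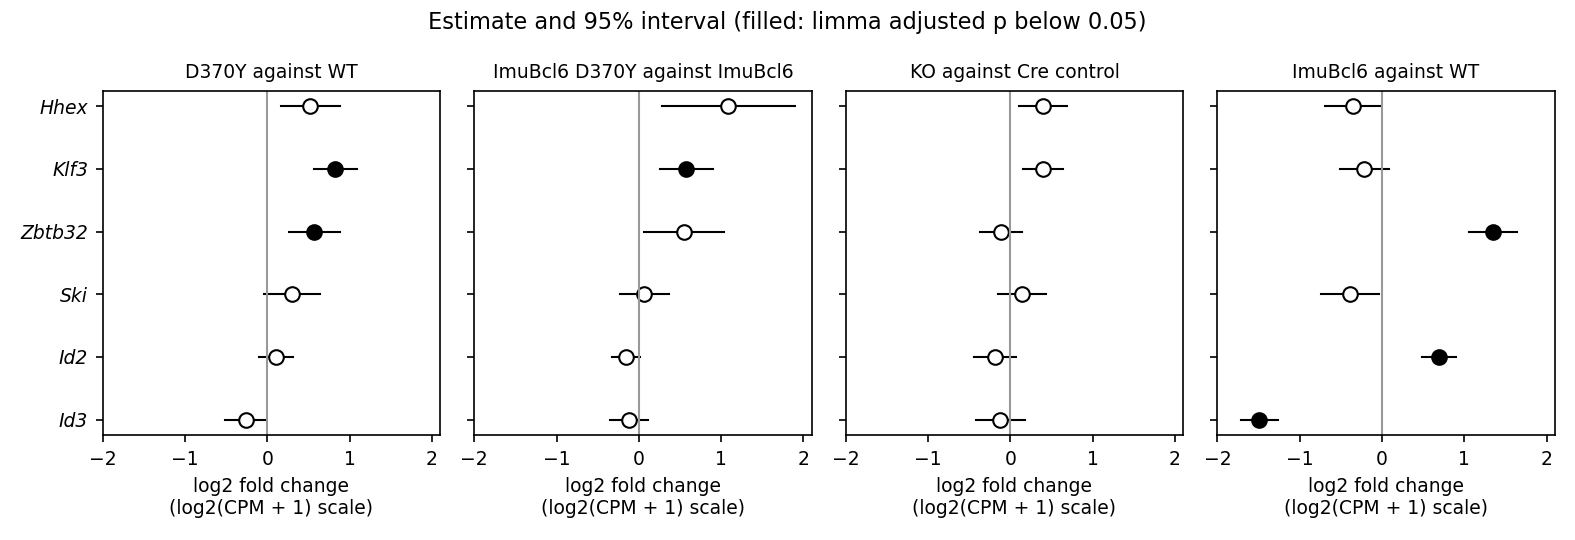
Log2 fold change (log2(CPM + 1) scale) of each member, as points with 95% intervals, in the 4 comparisons between groups; filled points have a limma adjusted p below 0.05 over all genes tested. Klf3 lies to the right of 0 in the 3 comparisons of a Tbl1xr1 allele with its control, at 0.83, 0.58 and 0.39, and in ImuBcl6 against WT Id3 lies far to the left, at -1.49, with Zbtb32 and Id2 to the right.

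In the libraries labelled KO against Cre control, no member was called by limma, where 1.39% of the 10514 genes tested were. An unadjusted p below 0.05 was found for 2 members, Klf3 and Hhex, which DESeq2 both called (adjusted p = 0.0253 and 0.00345). The quasi-likelihood test of edgeR called Hhex (adjusted p = 0.0387) and not Klf3. Klf3 was at 4.24, 4.22, 4.40, 5.12 and 4.20 CPM in the libraries labelled KO and at 2.45, 3.38, 3.91, 2.74 and 3.33 CPM in Cre control. All 5 lay above all 5 controls, which held for 0.742% of the genes tested, and the means were 1.40 times apart. The log2 fold change of 0.39 (SE 0.12) had a limma adjusted p of 0.135, and without replicate 3 of the group labelled KO it was 0.40 (0.0752).

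Hhex was at 12.5, 10.6, 7.36, 14.6 and 12.6 CPM in the libraries labelled KO and at 7.61, 8.93, 8.52, 7.78 and 8.86 CPM in Cre control. The 4 libraries other than replicate 3 lay above every control, and replicate 3, the library with fewer reads on listed genes, lay below every control. The log2 fold change was 0.39 (SE 0.14, limma adjusted p = 0.264) with that library and 0.53 (adjusted p = 0.00536) without it. It also passed when CPM were taken over the listed genes alone (0.46, limma adjusted p = 0.0481).

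Replicate 3 was likewise the lowest library labelled KO for Zbtb32, Id2 and Id3. Zbtb32 was at 10.9, 8.87, 6.79, 10.7 and 10.4 CPM against 8.94 to 10.9 CPM in Cre control (log2 fold change -0.12, SE 0.12, limma adjusted p = 0.882, and -0.01 without replicate 3). Id2 was at 12.0, 10.8, 7.29, 12.7 and 10.8 CPM against 11.0 to 12.6 CPM (log2 fold change -0.19, SE 0.12, limma adjusted p = 0.765, and -0.07 without replicate 3). Id3 was at 121.6, 110.0, 66.2, 111.1 and 105.9 CPM against 98.2 to 129.0 CPM (log2 fold change -0.12, SE 0.14, limma adjusted p = 0.892, and 0.03 without replicate 3). Ski was at 4.81 to 6.17 CPM, inside the 3.07 to 6.34 CPM of Cre control (log2 fold change 0.14, SE 0.14, limma adjusted p = 0.879, and 0.17 without replicate 3).

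Set against the D370Y effect in WT background in 1 limma fit, no member was called, there or by edgeR or DESeq2, and 0.145% of genes were. An unadjusted p below 0.05 was found for 2 members, Zbtb32 and Klf3. For Zbtb32 the effect in the libraries labelled KO was lower by 0.69 on the log2 scale (95% interval -1.09 to -0.29, adjusted p = 0.214), and for Klf3 by 0.43 (95% interval -0.78 to -0.08, adjusted p = 0.534). The 2 effects come from libraries whose preparation is described separately.

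**Figure D3:**
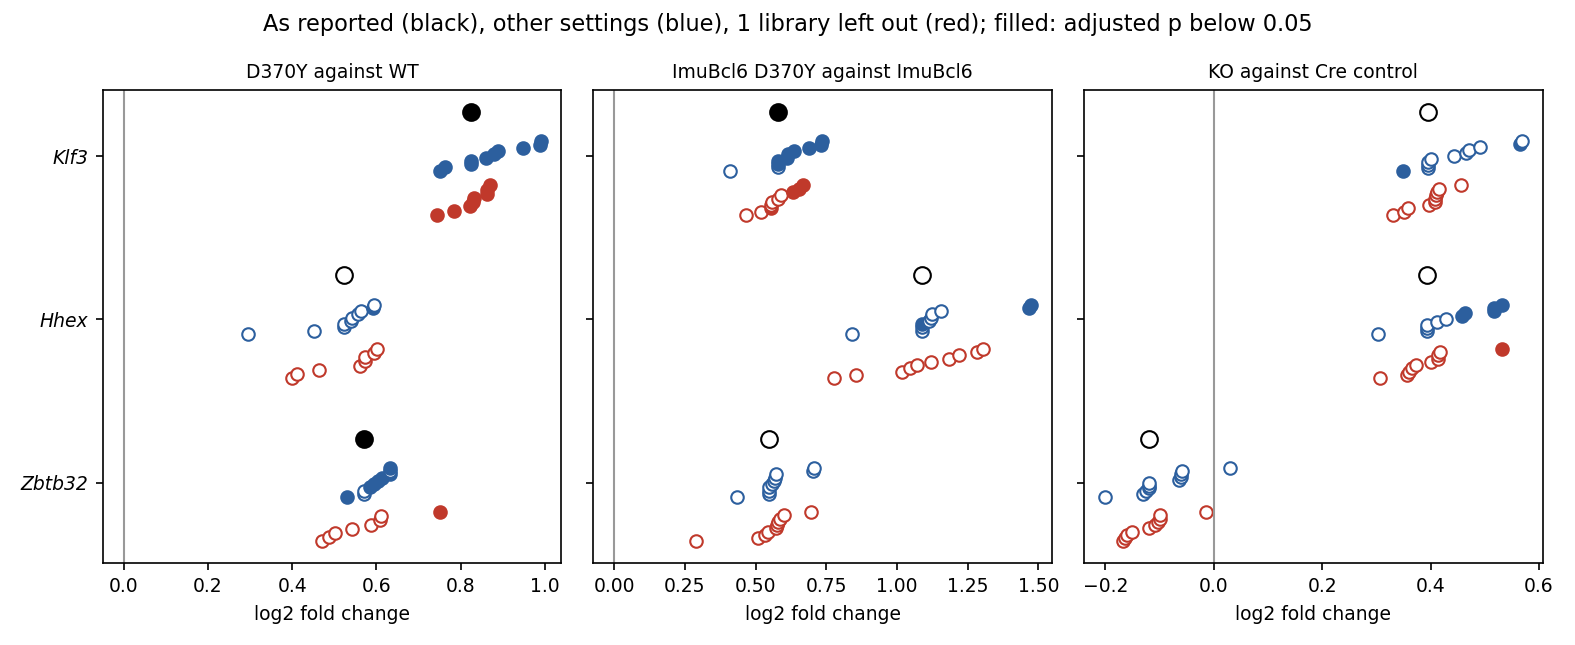
Log2 fold change of Klf3, Hhex and Zbtb32 in the 3 comparisons of a Tbl1xr1 allele with its control, as reported (black), under the other settings (blue) and with 1 library left out (red); filled points have an adjusted p below 0.05. Klf3 stays filled throughout in D370Y against WT, Zbtb32 there loses the call in all but 1 of the red points, and Hhex in the libraries labelled KO gains it in 5 of the blue points and 1 red point.

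Of the 4 comparisons between groups, ImuBcl6 against WT had the most members called by limma, with opposite directions within the Id pair. Id3 fell to 0.352 times its WT mean, while Id2 rose by 1.67 times and Zbtb32 by 2.74 times. Of all 10889 genes tested, 53.3% were called in this comparison (24.7% higher and 28.6% lower), so 3 of 6 called members is close to the background, as is the same count of members without overlap (52.3% of genes). The comparison shares its WT libraries with the first comparison and its ImuBcl6 libraries with the second.

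Id3 was at 27.9 to 39.8 CPM in ImuBcl6 and at 94.2 to 103.3 CPM in WT, with no overlap and a log2 fold change of -1.49 (SE 0.10, limma adjusted p = 7.17e-07). Zbtb32 was at 16.8 to 20.9 CPM against 5.76 to 8.99 CPM, again without overlap (1.35, SE 0.13, limma adjusted p = 1.12e-05). Id2 was at 16.4 to 21.3 CPM against 11.0 to 12.2 CPM, also without overlap (0.69, SE 0.09, limma adjusted p = 0.000134). The ImuBCL6 allele and the sex-linked difference cannot be told apart in these changes. Markers of cell state were called in the same comparison too, as were 53.3% of all genes. Of 5 naive B cell markers 4 fell (median log2 fold change -0.80). Of the 9 B cell and germinal center markers 3 fell and 2 rose, which is close to the share over all genes. Among them Ms4a1, which encodes CD20, was at 1135 CPM against 2346 CPM (-1.05, limma adjusted p = 3.7e-05). The part of these markers in the member results was not tested. The calls of Id3, Zbtb32 and Id2 held in all 10 other settings and with any 1 library left out. Hhex (-0.36, adjusted p = 0.0707), Ski (-0.39, 0.0643) and Klf3 (-0.21, 0.203) did not pass in limma, and the groups overlapped for each.

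Id2 and Id3 share E proteins as targets, so their levels were also set side by side per kilobase. The ratio of Id3 to Id2 in CPM per kb was 11.6 on average in WT (10.9 to 12.4) and 2.45 in ImuBcl6 (2.14 to 2.66). In ImuBcl6 D370Y it was 2.53 (2.26 to 2.91), and in D370Y 9.05 (7.24 to 10.6), with every D370Y library below every WT library. The libraries labelled KO and Cre control overlapped, at 13.0 (11.9 to 13.9) and 12.4 (11.0 to 15.9). The summed Id2 and Id3 level was 0.620 times the summed level of the E protein genes Tcf3, Tcf4 and Tcf12 in WT and 0.357 times in ImuBcl6, where the 2 ranges do not overlap (0.581 to 0.670 and 0.339 to 0.383). In D370Y it was 0.578 times (0.481 to 0.759), which overlaps WT. The exon length used was 27.4 kb for Tcf4 and 15.5 kb for Tcf12 but 4.04 kb for Tcf3, which weights the E protein sum towards Tcf3. The size of the ratio to E proteins therefore depends on the annotation. None of these ratios was tested, and neither Id2 nor Id3 was called by limma in D370Y against WT.

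**Figure D4:**
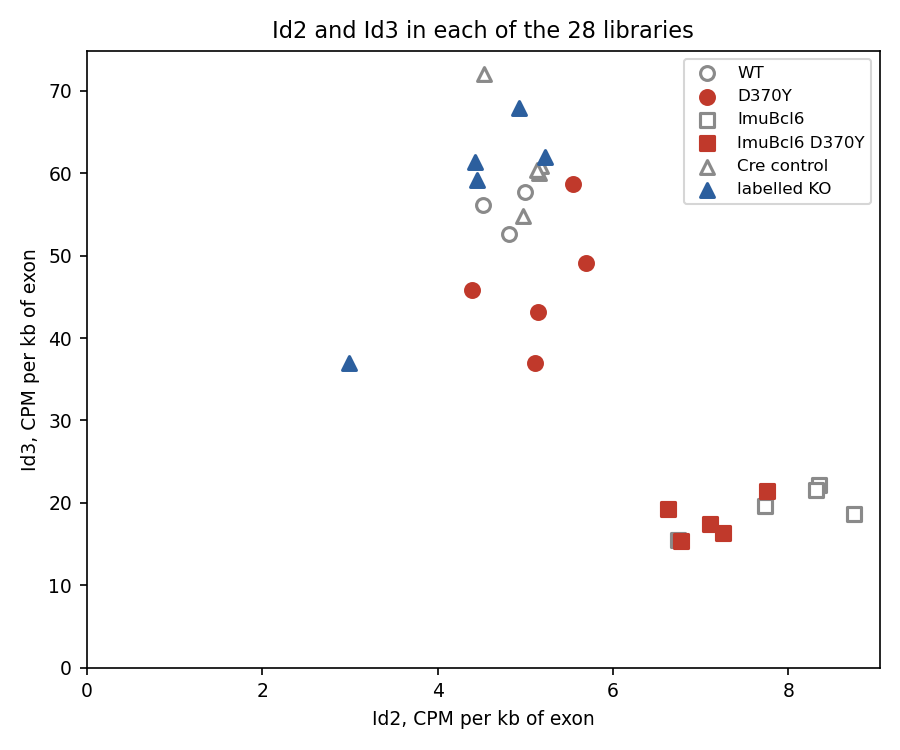
Id3 against Id2, both in CPM per kb of exon on linear axes from 0, with 1 symbol per library (circles WT and D370Y, squares the 2 ImuBcl6 groups, triangles Cre control and the libraries labelled KO; open symbols are controls). The 10 libraries with ImuBcl6 lie at low Id3 and high Id2, apart from the other 18, and 1 triangle labelled KO, replicate 3, lies low on both axes.

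Across the 6 groups, the order of the group means differed from member to member. Hhex was highest in ImuBcl6 D370Y and lowest in Cre control, Klf3 and Ski were highest in D370Y, Zbtb32 was highest in ImuBcl6 D370Y, Id2 in ImuBcl6 and Id3 in Cre control. For Hhex, Klf3 and Ski the library ranges of all neighbouring groups in the order overlapped. A gap between neighbours was found once each for Zbtb32 (ImuBcl6 above D370Y), Id2 (ImuBcl6 D370Y above D370Y) and Id3 (D370Y above ImuBcl6). In each case the gap lay between groups with and without ImuBcl6.

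The genes nearest to the members in the same pathways were read from lists written with earlier results of these data known. Of the 3 E protein genes tested (Tcf3, Tcf4 and Tcf12), none was called with either D370Y comparison or in the libraries labelled KO, and Id1 and Id4 were too low to test. Tcf3, which encodes E2A, was at 315.5 ± 18.6 CPM (SD, n = 5) in D370Y and 345.7 ± 14.6 CPM (SD, n = 3) in WT. In ImuBcl6 against WT it fell by 0.37 on the log2 scale (limma adjusted p = 0.00816), and 0 of the 3 rose. Of 4 genes linked to E proteins, 2 fell in ImuBcl6 D370Y: Ccnd3, which encodes the cyclin that germinal center B cells use to divide (-0.48, limma adjusted p = 0.00992), and Foxo1, a dark zone regulator (-0.28, adjusted p = 0.0276). In D370Y against WT none of the 4 was called by limma, with Ccnd3 at -0.30 (adjusted p = 0.0611).

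Among 4 tested Groucho/TLE genes, partners of HHEX, Tle1 fell with D370Y, from 11.4 ± 1.82 CPM (SD, n = 3) to 6.81 ± 0.938 CPM (SD, n = 5; log2 fold change -0.67, limma adjusted p = 0.0101). It was at -0.50 in ImuBcl6 D370Y (adjusted p = 0.0640) and at -0.33 in the libraries labelled KO (adjusted p = 0.268), neither called. Tle3, the TLE protein placed with HHEX in memory B cells, was at 0.26 (adjusted p = 0.150), 0.18 (0.517) and -0.10 (0.888). Of 15 SMAD pathway genes around SKI, 1 fell with D370Y, Tgfbr1, which encodes the type I TGF-beta receptor (-0.41, limma adjusted p = 0.0296). In ImuBcl6 D370Y none was called, and in the libraries labelled KO 1 fell, Smad1, which carries BMP signals (-0.66, adjusted p = 0.0247). Skil, the paralog of Ski, was at -0.02 in both D370Y comparisons, and fell by 0.77 in ImuBcl6 against WT (adjusted p = 0.00169). There 8 of the 15 fell and 2 rose, in a comparison where 28.6% of all genes were called lower and 24.7% higher.

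In the family of Klf3, Klf2, which drives B cell egress and homing genes, rose in D370Y (0.75, limma adjusted p = 0.000682) and in the libraries labelled KO (0.99, adjusted p = 0.00130). In ImuBcl6 D370Y it was at 0.16 (adjusted p = 0.582). Klf10, a TGF-beta-induced repressor, fell in D370Y (-0.41, adjusted p = 0.00958) and in ImuBcl6 D370Y (-0.41, adjusted p = 0.00983). These were the called KLF and CtBP genes of 11, 12 and 9 tested. Of 8 genes linked to ZBTB32, Prdm1, which encodes the plasma cell factor BLIMP-1, rose with D370Y (1.07, limma adjusted p = 0.0466), and none was called in the other 2 comparisons. The MHC class II genes that ZBTB32 is known to repress together with BLIMP-1 were not called, with Ciita, their transactivator, at 0.11 in D370Y and -0.03 in ImuBcl6 D370Y.

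Of 18 memory B cell genes, among them Klf2, 11 rose with D370Y (median log2 fold change 0.74, against -0.02 over all genes tested), and 8 rose in ImuBcl6 D370Y (0.52 against -0.01). In the libraries labelled KO 6 rose and 1 fell (0.27 against -0.06). The largest rises were Ccr7, the lymph node homing receptor, at 0.95 in D370Y, and Gpr183, the oxysterol receptor, at 1.17 in ImuBcl6 D370Y. The median over the 6 members was 0.41, 0.31 and 0.01 in the same comparisons. Of 12 germinal center genes, 2 fell in D370Y, 3 in ImuBcl6 D370Y and 1 in the libraries labelled KO, and none rose. Gcet2 (Gcsam), a brake on germinal center B cell motility, was among those that fell each time, at -0.48, -0.78 and -0.69.

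**Figure D5:**
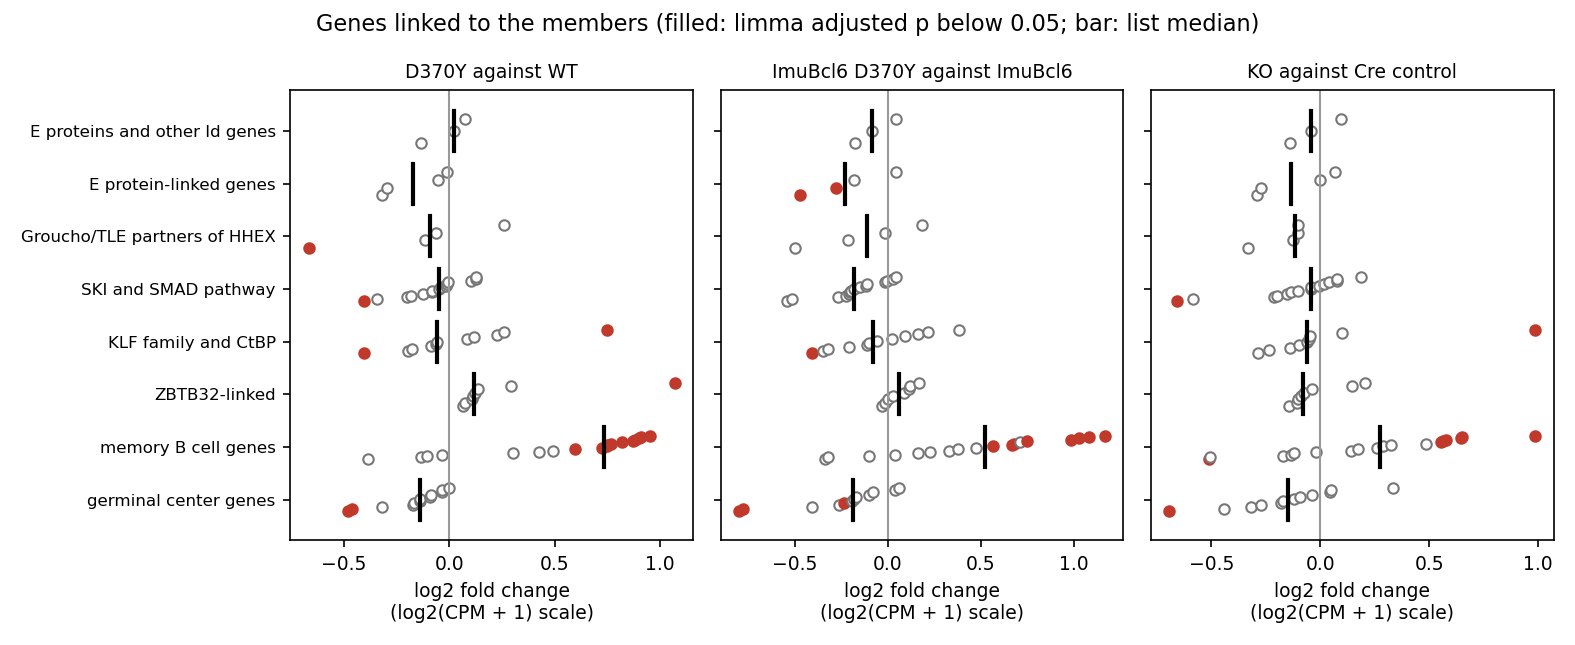
Log2 fold change (log2(CPM + 1) scale) of every tested gene on the 8 linked lists in the 3 comparisons of a Tbl1xr1 allele with its control; filled red points have a limma adjusted p below 0.05 and bars are list medians. Memory B cell genes lie mostly to the right of 0, with medians of 0.74, 0.52 and 0.27, while the E protein, TLE, SMAD and KLF lists have 0 to 2 called genes each, with the E protein-linked list reaching the lowest median, -0.23, in ImuBcl6 D370Y.

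Genes whose pattern over the 28 libraries was most like that of each member were ranked by Pearson r of log2(CPM + 1), after centring each library on the mean of its own control group, among 8515 genes. These are descriptions only: libraries share controls and protocol within each pair of groups, and depth and protocol are not the same over all 28. Klf3 had the closest: Cd97, Lrrc33 and S1pr1, at r from 0.90 to 0.91. S1pr1, the receptor that guides lymphocytes out of tissue, was at 64.3 to 76.1 CPM in D370Y and 34.9 to 39.2 CPM in WT, and at 28.6 to 35.4 CPM in the libraries labelled KO and 17.5 to 23.9 CPM in Cre control. Hhex was closest to Gimap3, Pld4 and Cd38 (r from 0.83 to 0.86). In replicates 3 and 4 of ImuBcl6 D370Y, where Hhex was high, Gimap3 was at 133.3 and 143.6 CPM, against 85.3 to 97.4 CPM in the other 3. Without these 2 libraries the r of Hhex was 0.85 with Gimap3, 0.79 with Pld4 and 0.75 with Cd38.

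Zbtb32 was closest to Arrb1, S100a10 and Plac8 (r from 0.82 to 0.85) and Ski to Glyctk, Pou6f1 and B4galt5 (r from 0.69 to 0.71). Id2 was closest to Rnf185, Uap1l1 and Cyb5r3 (r from 0.84 to 0.85), and Id3 to Rraga, Mid1ip1 and Hnrnpf (r from 0.83 to 0.85). Without replicate 3 of the group labelled KO the r of Id2 fell to between 0.66 and 0.70 and that of Id3 to between 0.74 and 0.77. Among the members themselves, r was 0.67 for Hhex with Zbtb32, 0.65 for Hhex with Klf3 and 0.66 for Zbtb32 with Klf3, over the same 28 libraries. Without replicates 3 and 4 of ImuBcl6 D370Y the first of these was 0.41 and the other 2 were 0.66 and 0.58. Klf3 and Id3 ran opposite ways, at r of -0.46, and Id2 with Id3 was at 0.45, or 0.10 without replicate 3 of the group labelled KO.

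Markers of other cells moved with some of these results. The summed level of 13 myeloid markers was 42.5 to 58.4 CPM in D370Y against 18.5 to 26.5 CPM in WT, and 36.8 to 59.9 CPM in ImuBcl6 D370Y against 20.7 to 25.8 CPM in ImuBcl6. Of those high enough to test, 5 of 9 and 5 of 7 rose, and Marco in WT and Cd14 in ImuBcl6 D370Y were at 3 reads or fewer in every library. Replicate 3 of ImuBcl6 D370Y, which holds the highest Hhex, Zbtb32 and Klf3 of its group, had the highest myeloid sum, at 59.9 CPM against 36.8 to 41.9 CPM in the other 4. Replicate 4, the other library with high Hhex, was at 41.9 CPM. In the libraries labelled KO the myeloid sum, 81.8 to 200.7 CPM, overlapped that of Cre control, 101.7 to 151.4 CPM, and 0 of 10 tested markers were called. The part of these cells in the Klf3, Zbtb32 and Hhex results was not tested.

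Naive B cell markers, 5 of the 6 listed, summed to 554 to 1036 CPM in D370Y and 565 to 659 CPM in WT, and to 282 to 422 CPM in ImuBcl6 D370Y and 218 to 299 CPM in ImuBcl6. Of the 5, 2 and 3 rose. Replicates 4 and 5 of D370Y, the libraries with the highest Hhex of that group, held the high sums, at 896 and 1036 CPM, and the other 3 were at 554 to 587 CPM. For the libraries labelled KO the sum was 326 to 376 CPM against 277 to 311 CPM in Cre control, without overlap, as for Klf3, and 1 of the 5 rose. In replicate 3 of ImuBcl6 D370Y they summed to 282 CPM, the lowest of its group. Plasma cell markers, which include Prdm1, summed to 1393 to 2937 CPM in D370Y and 1751 to 1962 CPM in WT, and 2 of 6 rose. NK and innate lymphoid cells, which use Id2, had a marker sum of at most 3.45 CPM over 9 genes in every group, with Ncr1 at 3 reads or fewer in all D370Y, labelled KO, Cre control and WT libraries. T cell markers summed to 177 to 224 CPM in ImuBcl6 D370Y and 124 to 151 CPM in ImuBcl6, with 2 of 3 tested called higher. Those labelled KO had T cell sums of 252, 204, 125, 290 and 238 CPM against 150 to 188 CPM in Cre control, so that replicate 3 lay below every control and the other 4 above, as for Hhex, and 0 of 3 tested were called. Stroma and endothelium markers summed to 74.6 to 113.2 CPM in D370Y against 71.2 to 72.1 CPM in WT, without overlap. In ImuBcl6 D370Y they summed to 60.3 to 94.2 CPM, highest in replicate 3, against 45.6 to 60.5 CPM in ImuBcl6. Most of this sum was Pecam1, which other cells also carry and which was called higher in ImuBcl6 D370Y (0.42, limma adjusted p = 0.0455), while Kdr, Col1a1, Pdpn and Emcn were at 3 reads or fewer in every library of D370Y, WT and ImuBcl6 D370Y. The part of naive B, plasma, T and stromal cells in the member results was not tested.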

How the data were processed

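Trizol and RNeasy columns served to extract RNA of germinal center B cells, per the labels' protocols. For the group labelled KO and Cre control the labels name a stranded TruSeq kit. The kit of the other groups, the counting tool and the annotation: not given in the sources used here. STAR and mm10 are named in the submitters' processing notes. The authors deposited CPM for 23382 symbols per library. Each value was a whole number of reads within 0.01 read (100% of values), so whole reads were recovered, giving 19022495 to 37700121 reads per library (3 reads are 0.0640 to 0.133 CPM). These are the reads on the listed genes, which made up 64.4% to 84.6% of the library total used for CPM.

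The main test was limma 3.58.1 (R 4.3.3; trend, robust, two-sided) on log2(CPM + 1), for genes at 1 CPM or more in as many libraries as the smaller group, each allele against its own control, with Benjamini-Hochberg adjustment over all genes and calls at 0.05. Differences between effects were contrasts in 4-group fits. Alternatives were other pseudocounts, no filter, CPM over the listed genes, TMM, edgeR 4.0.16 and DESeq2 1.42.0 on recovered reads, 1 fit of all libraries, library weights, a replicate block, and each library left out. Xist as a covariate was used only for the libraries labelled KO against Cre control. On simulated data, 1.5-fold changes were recovered at 91% for D370Y against WT, 89% for ImuBcl6 D370Y against ImuBcl6 and 74% for the libraries labelled KO.

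Replicate numbers were taken from the labels. Between libraries of a group, chi-square per gene was at least 3.77 over 53 pairs, so none was counted as a duplicate. Gene positions come from GENCODE M21 (mm10) and promoters from RefSeq (GRCm38.p6). The members and lists were chosen with earlier results of these data known. Text names the 6 members, called genes of the lists (the largest changes first, up to 6 per list), up to 2 abundant uncalled ones per list, and the 3 genes most like each member, except Tle3, Skil, Ciita, Klf2 and Tle1 where uncalled, named after their values were seen. Some genes of the lists are not reported here by name.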

Additional observations from a re-analysis of the deposited data

Results flagged for a closer look

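In 30 groups of 5 libraries (6 members in the 5 groups of that size), 4 held 1 library whose distance to the nearest of the others was over 0.71 of the whole range. Chance flags about 1 in 20 such groups, or 1.5 of the 30. Zbtb32 reached 58.2 CPM in replicate 3 of ImuBcl6 D370Y, against 18.3 to 25.8 CPM in the other 4. Klf3, the CtBP-recruiting repressor, reached 10.7 CPM in replicate 4 of D370Y, against 7.44 to 8.29 CPM. In replicate 4 of the group labelled KO it reached 5.12 CPM, against 4.20 to 4.40 CPM. Id3 was at 66.2 CPM in replicate 3 of the group labelled KO, against 105.9 to 121.6 CPM. In this library the listed genes held 64.4% of the total used for CPM. The 2 high Hhex values in ImuBcl6 D370Y did not meet this rule, since they lie near each other.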

How the results depend on the processing

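Of 1337 recomputed values, 1187 kept their direction and side of the threshold, or for counts and levels their size. Levels counted as kept when the group mean moved by less than 1 SD. Leaving out 1 library cannot move a mean that far, so those values were bound to be kept and show no stability. Klf3 in D370Y against WT was called under all 10 other settings (0.75 to 0.99) and with any 1 library left out (0.74 to 0.87). The 3 to 5 libraries of a group limit what was detectable: in the libraries labelled KO 74% of simulated 1.5-fold changes were recovered, and in their contrast with D370Y 27%. Only genes at a mean of 5 CPM or more were simulated as changed. Klf3 in the group labelled KO and Cre control (4.44 and 3.16 CPM) lay below that, as did Ski in ImuBcl6 D370Y and ImuBcl6 (4.07 and 3.89 CPM). Klf3 in ImuBcl6 D370Y and ImuBcl6, the only member called there, also lay below that as a mean over the libraries of both groups. The recovery rates of these comparisons therefore do not cover them. Ski and Klf3 rest on 90 to 331 reads in a library. The causes of the changes listed here were not tested.

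Without the filter on low values, which adds genes to the adjustment, Zbtb32 in D370Y (0.57), Klf3 in ImuBcl6 D370Y (0.58) and Hhex in the averaged effect (0.81) lost the call, and the genes called fell from 376 to 219, 146 to 86 (labelled KO) and 74 to 49 (effect with minus without ImuBcl6). In D370Y, Zbtb32 also lost it in edgeR (0.63) and with all 28 libraries in 1 fit (0.57), Hhex gained it in DESeq2 (0.59), and DESeq2 called 659 genes. In ImuBcl6 D370Y, Hhex gained it in edgeR (1.47), DESeq2 (1.47) and the fit of all libraries (1.09), and DESeq2 called 1378 genes against 882. In the libraries labelled KO, Hhex gained it over listed genes (0.46, 236 genes called), with TMM (0.46, 243 genes), in edgeR (0.52, 238 genes) and in DESeq2 (0.52, 455 genes), and Klf3 in DESeq2 (0.57). The fit of all libraries called 285 genes there and the one with Xist as a covariate 402, in which Hhex was at 0.30 and Klf3 at 0.40, neither called. The difference in Zbtb32 between the D370Y effects turned to 0.0903 in edgeR and 0.10 in DESeq2 (184 genes called), from -0.02. The contrast of the libraries labelled KO with D370Y gave 9 genes with TMM, 5 in edgeR and 43 in DESeq2, against 16.

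With library weights, 973, 1111, 197, 211 and 2167 genes were called (D370Y, labelled KO, the 2 contrasts of effects, the average). Klf3 in ImuBcl6 D370Y lost the call (0.41). Hhex (0.53) and Klf3 (0.35) in the libraries labelled KO and Hhex (-0.33) and Ski (-0.39) in ImuBcl6 gained it. Zbtb32 (0.0293) and Id3 (0.0244) in the libraries labelled KO, Hhex in the contrast with D370Y (0.0829) and Id2 in the averaged effect (0.00109, and 0.00118 over listed genes) turned direction. Over listed genes, the share of calls that were higher moved from 34.2% to 44.6% in ImuBcl6 D370Y, from 34.2% to 48.3% in the libraries labelled KO and from 49.8% to 64.4% in the average.

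Over listed genes, group means moved by more than 1 SD to these CPM values: Hhex 13.5 in WT, 10.6 in ImuBcl6, 14.3 in the group labelled KO and 10.1 in Cre control, Ski 6.35 in WT, 5.06 in ImuBcl6 D370Y and 6.94 in the group labelled KO, Zbtb32 13.1 in D370Y, 23.2 in ImuBcl6, 11.9 in the group labelled KO and 12.5 in Cre control. Klf3 moved to 10.4 in D370Y, 5.13 in WT, 4.42 in ImuBcl6, 5.63 in the group labelled KO and 3.81 in Cre control. Id2 moved to 15.5 in D370Y, 14.0 in WT, 21.6 in ImuBcl6 D370Y, 23.9 in ImuBcl6, 13.4 in the group labelled KO and 14.7 in Cre control, and Id3 to 102.9 in D370Y, 119.0 in WT, 40.2 in ImuBcl6 D370Y, 42.9 in ImuBcl6, 128.0 in the group labelled KO and 133.3 in Cre control.

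Replicate numbers did not pair the libraries: same-numbered libraries correlated at -0.04 to 0.17 in D370Y, -0.28 to 0.51 in ImuBcl6 D370Y, -0.21 to 0.22 in the libraries labelled KO and -0.15 to 0.15 in ImuBcl6 against WT, and not every library correlated best with its own number. With the replicate number as a block, 764 (D370Y), 133 and 64 genes (the contrasts of effects) were called. Id3 in D370Y (-0.37) and Hhex in ImuBcl6 (-0.43) gained the call, Hhex in the average lost it (0.69), and Hhex in the contrast of the libraries labelled KO with D370Y turned to 0.10. The block changed no other call of a member.

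With 1 library left out, the genes called ranged from 124 to 473 (D370Y; fewest without any WT library), 434 to 1016 (ImuBcl6 D370Y), 87 to 449 (labelled KO; most without its replicate 3), 31 to 110 and 7 to 63 (the contrasts) and 896 to 1482 (the average). Zbtb32 ranged from 0.47 to 0.75 in D370Y, Klf3 from 0.47 to 0.67 and Ski from -0.0209 to 0.16 in ImuBcl6 D370Y. In the libraries labelled KO, Hhex ranged from 0.31 to 0.53 and Id3 from -0.19 to 0.0265, and in ImuBcl6 Hhex from -0.48 to -0.28 and Ski from -0.48 to -0.30. The difference in Zbtb32 between the D370Y effects ranged from -0.28 to 0.13 and that in Hhex between the libraries labelled KO and D370Y from -0.22 to 0.00975. In the average, Hhex ranged from 0.65 to 0.91, Zbtb32 from 0.43 to 0.65 and Id2 from -0.0543 to 0.000535.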
